A study of Mus musculus with 8 samples.

Results

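The RNA levels of 10 proteoglycan core genes were examined in cultured mouse hepatocytes: Prg4, Bgn, Dcn, Lum, Sdc1, Sdc2, Sdc4, Gpc1, Gpc4 and Agrn. They are 10 of 20289 genes with a named probe, and 18 of the 45281 probes carry their symbols in the array's annotation. Prg4 was chosen by its large fall after a high fat diet in these same arrays, so its difference is described here without a test. The other 9 genes were taken as members of the same class of proteins, and their differences were tested.

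A proteoglycan is a core protein that carries long sulfated sugar chains, the glycosaminoglycans. Syndecans span the cell membrane and glypicans are held to it by a lipid anchor; both carry heparan sulfate, which binds growth factors and, on hepatocytes, takes part in clearing triglyceride-rich lipoprotein remnants from blood. Biglycan, decorin and lumican are small leucine-rich proteoglycans of the extracellular matrix, made mainly by fibroblast-like cells, and agrin is a large heparan sulfate proteoglycan of basement membranes. Prg4 encodes lubricin, a secreted mucin-like glycoprotein best known as the lubricant of joint cartilage and also made in liver.

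Male C57Bl/6 mice supplied the primary hepatocytes, with 4 arrays for normal chow (label numbers 1, 2, 3 and 5) and 4 for a high fat diet (HFD; 8, 10, 11 and 12). The cells of both diets were treated alike: they were plated in M199 that held 10% serum, insulin at 100 nM, dexamethasone at 400 nM and EGF at 1.5 nM, went after 4 h into medium with 10 nM insulin, and gave RNA 24 h later. Mouse age, diet length and the slide of each array are unknown here.

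Levels are log2 values as the authors deposited them, and differences are HFD minus chow on that scale. Each array had a median of 7.51, so a probe that stayed under 7.6 on every array is called near background here. A gene was called where its adjusted p was under 0.05 in limma over all 20289 genes, and was represented by its brightest probe. One array stood apart. Chow 3 correlated with the others at r = 0.946 to 0.952 across probes, against 0.989 or more among the remaining 7, and of 3886 probes with a mean above 10 on those 7 arrays, 251 read more than 2 lower on chow 3. On any other array at most 1 such probe did. Member results are therefore given with and without chow 3. Of 15 hepatocyte markers, 13 lay above background on at least 1 array; Fgb and Tat did not. In that list Cps1, a urea cycle enzyme, rose by 0.51 (adjusted p = 0.0105) and 0 fell by limma (1 lower at an unadjusted p under 0.05). Here and below, counts at an unadjusted p are given without the share of all genes at that threshold. Of 8 bile duct markers Cldn4 (0.58) and Tspan8 (0.27) rose. Calls over all genes were 1.47% higher and 2.57% lower.

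Lubricin RNA was far lower in HFD cultures on both of its probes. The brighter Prg4 probe read 13.37, 13.33, 13.89 and 13.35 on chow 1, 2, 3 and 5. It read 10.46, 10.01, 9.97 and 9.88 on HFD 8, 10, 11 and 12. The groups did not overlap, with the highest value on chow 3 and the lowest on HFD 12. The means were 13.48 ± 0.27 in chow and 10.08 ± 0.26 in HFD (SD, n = 4 each), a difference of -3.41 or 10.6-fold, the lowest of all 20289 genes. Without chow 3 it was -3.27, or 9.64-fold, and the SD of the chow arrays was then 0.02. In HFD cultures the probe remained well above background.

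The second Prg4 probe was lower in HFD as well but placed chow 3 differently. It read 9.94, 9.71, 8.20 and 10.05 on chow 1, 2, 3 and 5, and 7.87, 7.82, 7.83 and 7.91 on HFD 8, 10, 11 and 12. The groups did not overlap, yet chow 3 deviated from the mean of chow 1, 2 and 5 by -1.69 on this probe and by 0.54 on the brighter one. Its difference was -1.62 with all arrays and -2.04 without chow 3. The HFD values lie near the floor of the scale, where a difference can understate the change in RNA. Whether it does so for this probe was not tested. With the mean of both probes the Prg4 difference was -2.51.

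**Figure D1:**
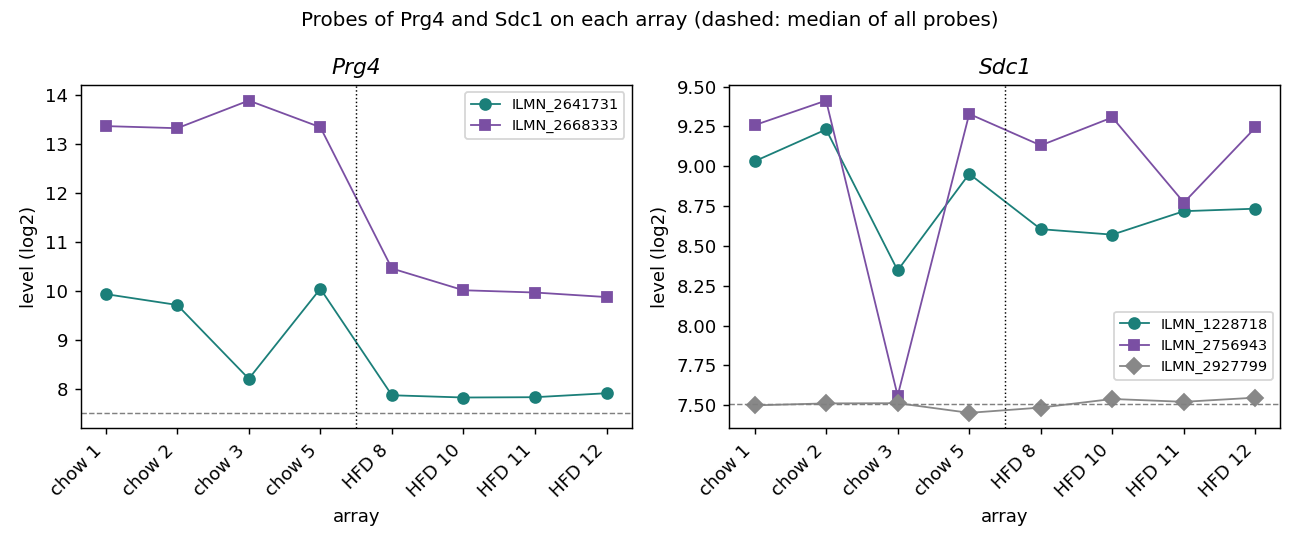
Level (log2) of each probe of Prg4 (left) and Sdc1 (right) on the 8 arrays; lines join the values of 1 probe, the dotted line parts the diets and the dashed line is the median of all probes. Both Prg4 probes are lower on every HFD array, while chow 3 is highest on 1 of them and lowest of the chow arrays on the other; on chow 3 the brightest Sdc1 probe drops to 7.56.

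The 5 genes whose profile over the 8 arrays lay closest to that of Prg4 were Ccl5, Cxcl13, Ms4a6d, Ccl7 and Fpr2. Likeness was the mean absolute distance between profiles centred on their own means, and it ran from 0.40 for Ccl5 to 0.63 for Fpr2. Since the distance rewards a large step between the diets, these values describe the same separation that selected Prg4 and are given with no test. Ccl5, Cxcl13 and Ccl7 are chemokine genes, Ms4a6d is a membrane protein gene of myeloid cells and Fpr2 encodes a formyl peptide receptor. Ccl5 ranged from 10.04 to 10.43 in chow and from 7.54 to 7.67 in HFD, and Fpr2 from 9.52 to 9.79 and from 7.47 to 7.59. The HFD values of Ccl5 and Fpr2, like those of the second Prg4 probe, lay close to background. So did those of Cxcl13 (7.56 to 7.76) and Ms4a6d (7.67 to 7.83), whereas Ccl7 read 8.40 to 8.95 in HFD.

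**Figure D2:**
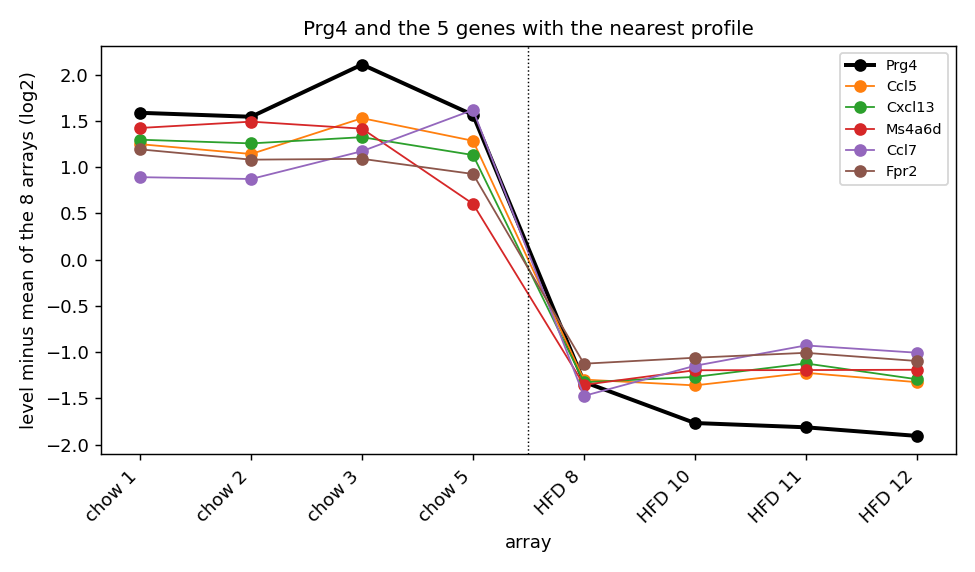
Level minus the gene's mean over the 8 arrays (log2) for Prg4 (thick line) and the 5 genes with the nearest profile; lines join the values of 1 gene and the dotted line parts the diets. All 6 profiles lie above 0 on each chow array and below 0 on each HFD array.

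Part of a list of macrophage and Kupffer cell markers was lower in HFD cultures. Of its 21 genes 8 fell and 13 were not called, with a list median of -0.56 (-0.47 without chow 3, when 12 fell), against a median of -0.005 over all genes. The lower calls made up 2.57% of all genes, and without chow 3, 9.17% of all genes were called in either direction. The mean level of the list was 8.57 to 8.67 on the chow arrays and 7.89 to 8.12 on the HFD arrays. Fcer1g, an Fc receptor chain, differed by -1.84, the lysosomal membrane gene Laptm5 by -1.46 and the surface receptor gene Adgre1 by -1.11 (adjusted p of 0.000593 or less for each). The 3 Adgre1 probes ranged from -1.11 to -0.11. Clec4f, Timd4, Vsig4 and Marco, markers of Kupffer cells, the resident macrophages of liver, were not called: Clec4f differed by 0.12, Timd4 by 0.08, Vsig4 by -0.35 and Marco by -0.47 (adjusted p = 0.651, 0.419, 0.651 and 0.0936). Cd5l, Itgam and Ptprc were near background on every array. Of 20 sinusoidal endothelial markers 5 fell, led by Fcgr2b (-1.37), Robo4 (-0.92) and Lyve1 (-0.80). The list mean was 8.07 to 8.27 in chow and 7.80 to 7.87 in HFD. Without chow 3, 12 fell and 1 rose. The 5 Fcgr2b probes ranged from -1.37 to 0.02 and the 4 Robo4 probes from -0.92 to 0.01. In bulk RNA, fewer cells of a type and less RNA per cell cannot be told apart, and the part of these cells in the Prg4 difference was not tested. Prg4 is also a gene of mesothelial cells, the lining of the abdominal organs. Of 11 mesothelial markers 0 were called by limma, the smallest p belonging to Krt19 (0.11, adjusted p = 0.191), and 8 were near background on every array. At an unadjusted p under 0.05, 1 was higher and 1 lower, with no share of all genes given for that threshold. Without chow 3, 1 of the 11 fell, the protease inhibitor gene Slpi, named after its values were seen (-0.30 with all arrays, adjusted p = 0.330; -0.42 without chow 3, adjusted p = 0.0113).

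Of the 9 tested genes 2 were called, Agrn higher and Bgn lower in HFD. The same number had an unadjusted p under 0.05, a threshold for which no share of all genes is given. Over all genes 4.04% were called, 1.47% higher and 2.57% lower. Agrn and Bgn were also the 2 tested genes whose HFD and chow arrays did not overlap, a pattern seen in 10.7% of all genes. Prg4 showed no overlap either, but it was picked for its fall in this contrast and is not counted. Without chow 3 again the 2 genes Agrn and Bgn were called, with 9.17% of all genes. The other 7 genes showed no difference that limma could call either way, and the width of their intervals differed greatly.

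**Figure D3:**
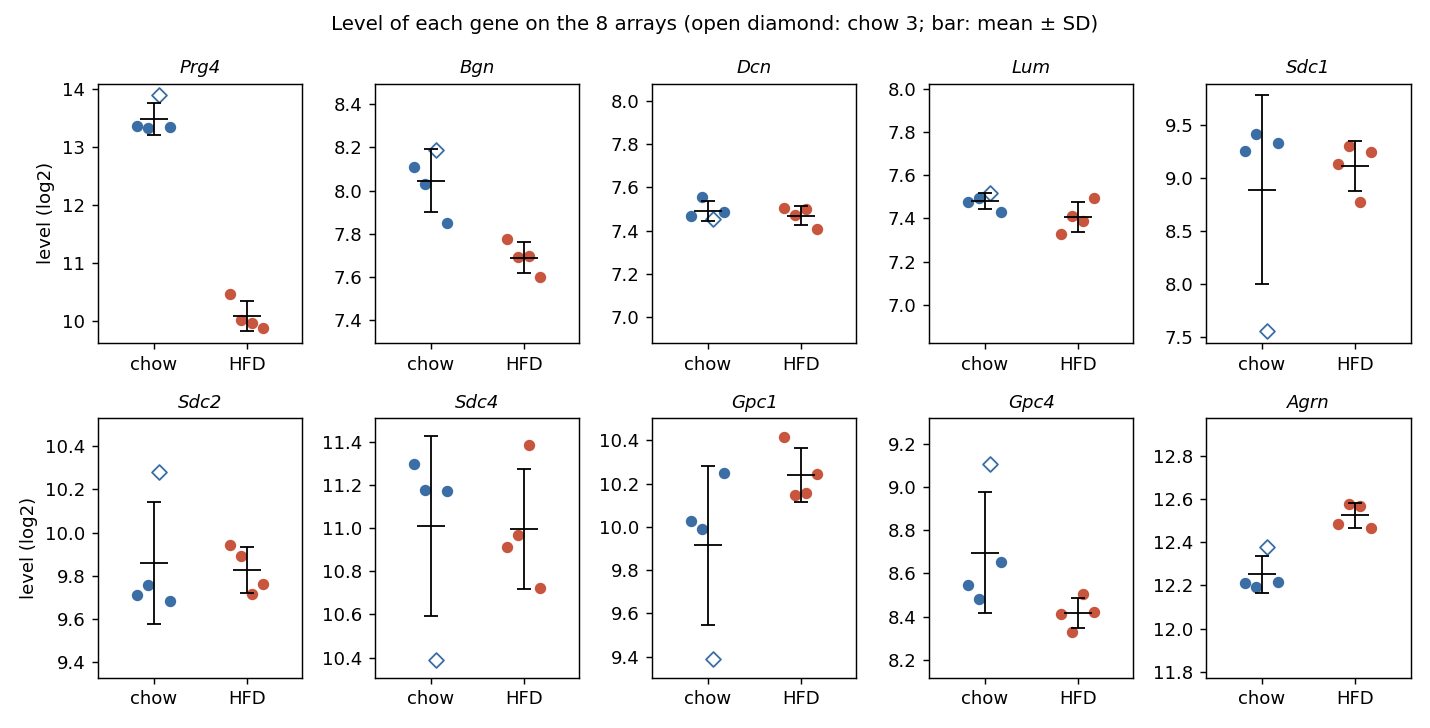
Level (log2) of each gene's brightest probe on the 4 chow and 4 HFD arrays; points are arrays, the open diamond is chow 3 and bars give mean ± SD. The vertical ranges differ between panels and span at least 1.2. Prg4, Bgn and Agrn separate the diets without overlap, and chow 3 is the highest or the lowest chow array in each of the 10 panels.

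Agrn rose by a small step at a high level. Its single probe read 12.21, 12.19, 12.38 and 12.22 on chow 1, 2, 3 and 5, and 12.48, 12.58, 12.57 and 12.46 on HFD 8, 10, 11 and 12. Every HFD array was above every chow array, chow 3 being the nearest. The difference was 0.27 (SE 0.050, 1.21-fold, adjusted p = 0.0235), and 0.32 without chow 3 (adjusted p = 0.0016). The call was lost without any array other than chow 3 (adjusted p from 0.0507 to 0.0840) and with trend and robust settings (0.0700).

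Bgn fell from a level only slightly above background, where a difference can understate the change in RNA. The biglycan probe read 8.11, 8.03, 8.19 and 7.85 on chow 1, 2, 3 and 5, and 7.77, 7.69, 7.70 and 7.6001 on HFD 8, 10, 11 and 12. Chow 5 and HFD 8 were the nearest pair. Its difference was -0.35 (SE 0.074, 1.28-fold, adjusted p = 0.0383), and -0.31 without chow 3 (adjusted p = 0.0226). The call was lost without chow 1, chow 2 or any HFD array (adjusted p from 0.0687 to 0.121), and over all 45281 probes, of which 2.09% were called, Bgn missed the threshold (0.0573) whereas Agrn passed (0.0337). As a gene of stellate cells and fibroblasts, Bgn was read beside 18 other markers of those cells. Of these markers 2 fell, beside 2.57% of all genes. They were Lox, a collagen cross-linking enzyme (-1.19, adjusted p = 0.00249), and Sparc, a matrix glycoprotein (-0.89, adjusted p = 0.00201). The 3 Sparc probes ranged from -0.89 to -0.27. Without chow 3 the same genes differed by -1.09 (Lox) and -0.99 (Sparc). Of the 18 markers 8 were near background on every array, and the list median was -0.02. Their part in the Bgn difference was not tested.

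Agrn and Bgn carry the tested differences, so the sequence before their start sites is shown, with each GC box (GGGCGG or its reverse complement CCGCCC, overlaps counted) in capitals. Both are the 150 bases before the start in RefSeq's promoter table for GRCm38.p6, 5′ to 3′ on the gene's strand. Of the 10 genes, 5 have a window there (Bgn, Sdc1, Sdc4, Gpc4 and Agrn); for Agrn the outer of 2 starts is printed.
Agrn (chr4:156197489-156197638, minus strand): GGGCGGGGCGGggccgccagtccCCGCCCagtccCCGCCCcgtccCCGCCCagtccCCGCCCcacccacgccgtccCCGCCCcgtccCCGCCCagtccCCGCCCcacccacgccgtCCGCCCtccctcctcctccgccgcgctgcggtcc
Bgn (chrX:73483451-73483600, plus strand): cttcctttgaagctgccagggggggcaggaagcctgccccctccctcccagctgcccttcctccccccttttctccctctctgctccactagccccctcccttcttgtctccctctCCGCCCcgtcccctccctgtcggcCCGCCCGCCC
The Agrn window held 10 matches and the Bgn window 3, both with 0 matches to the TATA box letters TATAAA on either strand. A GC box was found in 28.6% and TATAAA in 7.57% of all 32851 windows of this length. Of the 6 windows of members 5 held a GC box, also those of Sdc1 (3 matches) and Sdc4 (2), which were not called. The second Agrn start held 2 matches and Gpc4 0. These matches describe the letters; the arrays measured RNA and no binding.

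Decorin and lumican RNA was not detectable above background in either diet. The 4 Dcn and 2 Lum probes read between 7.33 and 7.55 on all 8 arrays. The brightest Dcn probe differed by -0.02 (95% confidence interval -0.10 to 0.06, adjusted p = 0.888) and the brightest Lum probe by -0.07 (-0.17 to 0.02, adjusted p = 0.499). At such levels a lower value could hardly be seen.

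None of the 3 syndecan genes was called by limma, with 0 at an unadjusted p under 0.05 on their brightest probes, and for each of them chow 3 lay far from the other chow arrays. The brightest probe of Sdc1, the main heparan sulfate proteoglycan by which mouse hepatocytes clear lipoprotein remnants, read 9.26, 9.41, 7.56 and 9.33 on chow 1, 2, 3 and 5. On HFD 8, 10, 11 and 12 it read 9.13, 9.31, 8.77 and 9.24. Chow 3 deviated by -1.77 from the mean of chow 1, 2 and 5, and HFD 11 was the lowest of the HFD arrays. The difference was 0.22 (-0.70 to 1.15, adjusted p = 0.900) and turned to -0.22 without chow 3 (-0.49 to 0.05, adjusted p = 0.379).

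A second Sdc1 probe gave a narrower spread. It read 9.03, 9.23, 8.35 and 8.95 on chow 1, 2, 3 and 5, and 8.60, 8.57, 8.72 and 8.73 on HFD 8, 10, 11 and 12. With all arrays it differed by -0.23 (adjusted p over all probes 0.746). Chow 3 lay below every HFD array, so the diets overlapped with all arrays. Without chow 3 every HFD array was below every chow array, a pattern for which no share of all probes is given here. The difference in the fit without chow 3 was -0.41 (adjusted p = 0.00884 over all probes). In that fit 3 of the 16 probes of the tested genes were called, those of Agrn and Bgn and this one, with 5.96% of all probes called; with all arrays 1 of the 16 was called. The remaining Sdc1 probe was near background on every array.

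Sdc4, a syndecan of focal adhesions, read 11.30, 11.18, 10.39 and 11.17 on chow 1, 2, 3 and 5, and 10.91, 10.97, 11.38 and 10.72 on HFD 8, 10, 11 and 12. Chow 3 was the lowest array of all, and HFD 11 was higher than every other array. The Sdc4 difference of -0.01 had an interval of -0.52 to 0.49 (adjusted p = 0.994), and without chow 3 it was -0.22 (-0.52 to 0.09, adjusted p = 0.470). Sdc2, a syndecan also found on fibroblast-like cells, read 9.71, 9.76, 10.28 and 9.69 on chow 1, 2, 3 and 5, and 9.94, 9.89, 9.72 and 9.76 on HFD 8, 10, 11 and 12. Here chow 3 was the highest array. Its difference was -0.03 (-0.34 to 0.28, adjusted p = 0.966), and it changed sign to 0.11 without chow 3 (-0.02 to 0.24, adjusted p = 0.367).

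Glypican RNA was not called in either direction. Gpc1 read 10.03, 9.99, 9.39 and 10.25 on chow 1, 2, 3 and 5, and 10.42, 10.15, 10.16 and 10.24 on HFD 8, 10, 11 and 12. Its HFD arrays overlapped chow 5, and the difference was 0.33 (-0.07 to 0.72, adjusted p = 0.483), or 0.15 without chow 3 (adjusted p = 0.394). The brighter Gpc4 probe read 8.55, 8.48, 9.11 and 8.65 on chow 1, 2, 3 and 5, and 8.41, 8.33, 8.503 and 8.42 on HFD 8, 10, 11 and 12. Only HFD 11 overlapped the chow arrays. Gpc4 differed by -0.28 (-0.58 to 0.02, adjusted p = 0.390), and by -0.14 without chow 3 (-0.27 to -0.02, adjusted p = 0.164); its other probe was near background.

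**Figure D4:**
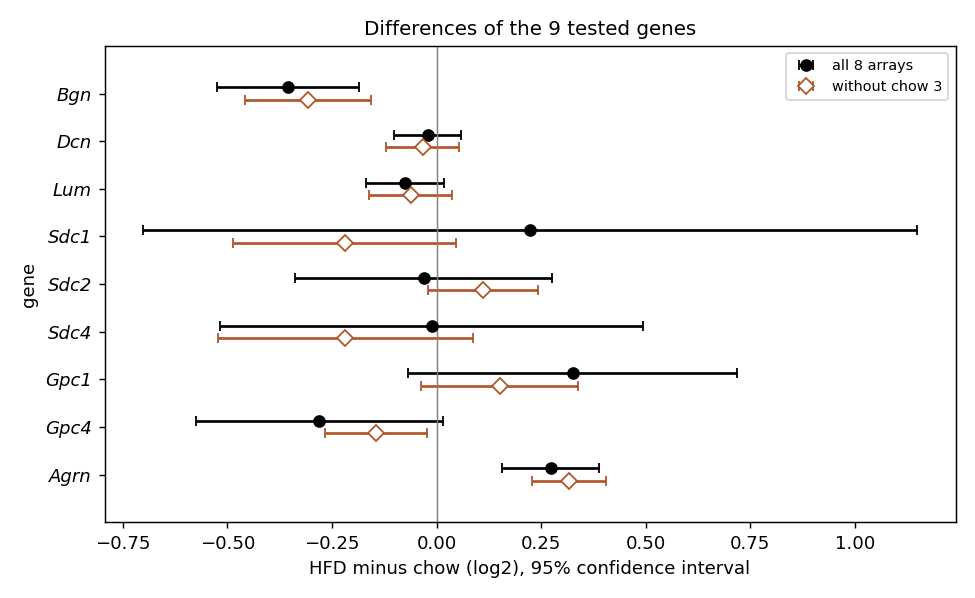
Difference between HFD and chow (log2) of the 9 tested genes with 95% confidence intervals from limma, with all 8 arrays (filled) and without chow 3 (open). The intervals of Bgn and Agrn exclude 0 in both fits; those of Sdc1, Sdc4, Sdc2, Gpc1 and Gpc4 narrow without chow 3, and the values of Sdc1 and Sdc2 change sign.

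The genes that act with these core proteins were read from 5 lists: other core proteins, enzymes that build the chains, enzymes that sulfate them, enzymes that shed or break them down, and receptors or partners. Of 142 measured genes 17 were called (11.97%, beside 4.04% of all genes), 12 lower and 5 higher in HFD, and 49 were near background on every array. Their median difference was -0.03. Only 5 of the 17 kept direction and call in each alternative in which they were tested: Esm1, Cd44, Col18a1, Ext1 and Sdcbp2. The others lost the call under at least 1 of them, and leaving out 1 array moved the count from 17 to between 6 and 26. Without chow 3 all 17 kept direction and call (adjusted p at most 0.0327); the differences were then -1.85 for Esm1, -0.97 for Cd44, 0.70 for Col18a1, -0.85 for Ext1 and -1.35 for Sdcbp2.

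Among 35 other core proteins 4 fell and 1 rose, with 4.04% of all genes called. At an unadjusted p under 0.05, 8 were lower and 2 higher, but the 4.04% does not apply to that looser threshold. Esm1, the endothelial proteoglycan endocan, read 10.72, 10.53, 10.62 and 10.63 on chow 1, 2, 3 and 5, and 8.75, 8.76, 8.77 and 8.84 on HFD 8, 10, 11 and 12. The groups lay far apart, with a difference of -1.84 (SE 0.045, 3.59-fold, adjusted p = 1.48e-06). Cd44, a hyaluronan receptor that can carry chains and also binds lubricin, read 11.59, 11.56, 11.41 and 11.51 on chow 1, 2, 3 and 5, and 10.45, 10.56, 10.77 and 10.56 on HFD 8, 10, 11 and 12. It fell by 0.93 (SE 0.071, adjusted p = 0.000526), although its 9 probes ranged from -0.93 to 0.03. Col18a1, a basement membrane heparan sulfate proteoglycan and the source of endostatin, rose from 9.64 ± 0.03 to 10.34 ± 0.14 (0.69, SE 0.068, adjusted p = 0.00148), its 3 probes spanning -0.04 to 0.69. Srgn (-0.37, adjusted p = 0.0300), the serglycin gene of blood cells, and Sdc3 (-0.48, adjusted p = 0.0270), another syndecan, were named after their values were seen and fell towards background. Of the 35 genes 21 were near background on every array, the cartilage and brain genes Acan, Bcan and Ncan among them.

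Among 26 measured genes of chain assembly 2 fell and 1 rose, and without chow 3, 3 fell and 2 rose. The share of all genes called was 4.04%, or 9.17% without chow 3. For the 4 lower and 2 higher at an unadjusted p under 0.05, no share of all genes is given. Ext1 encodes 1 subunit of the polymerase that extends the chain. Its values were 12.16, 12.20, 12.46 and 12.14 on chow 1, 2, 3 and 5, and 11.36, 11.21, 11.49 and 11.20 on HFD 8, 10, 11 and 12. All HFD arrays lay below all chow arrays, and Ext1 fell by 0.92 (SE 0.090, 1.90-fold, adjusted p = 0.00153). Ext2, the partner subunit, was named after its values were seen and differed by -0.40 (adjusted p = 0.0772), and by -0.31 without chow 3 (adjusted p = 0.0160); its 4 probes ranged from -0.40 to 0.02. Extl3, which starts heparan sulfate chains, rose by 0.19 (adjusted p = 0.0275; -0.03 to 0.19 over its 4 probes) but lost the call in 10 of 14 alternatives, with a difference of 0.03 as the mean of its probes. Chpf, a chondroitin polymerising factor, fell by 0.29 (adjusted p = 0.0482).

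Of 29 enzymes that sulfate or epimerise the chains 2 fell and 0 rose by limma (3 each way at an unadjusted p under 0.05; without chow 3, 2 fell and 1 rose). Calls over all genes were 1.47% higher and 2.57% lower, and 9.17% in either direction without chow 3. No share of all genes at an unadjusted p is given here. Hs2st1, the heparan sulfate uronyl 2-O-sulfotransferase, fell by 0.45 (SE 0.073, adjusted p = 0.0132) and Ndst2, an N-deacetylase and N-sulfotransferase, fell by 0.37 (adjusted p = 0.0329). Ndst2 lost its call in 6 of 14 alternatives (adjusted p up to 0.109), and Hs2st1 in 2 of 14, without HFD 11 or HFD 12 (adjusted p up to 0.0528).

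Among 24 shedding and breakdown genes 2 rose and 1 fell, with 4.04% of all genes called. At an unadjusted p under 0.05, a looser threshold for which no share of all genes is given here, 3 were higher and 7 lower. Mmp14, a membrane metalloproteinase, rose by 0.45 (SE 0.077, adjusted p = 0.0165; its second probe differed by -0.01), Hyal2, a membrane hyaluronidase, rose by 0.25 (adjusted p = 0.00948), and the lysosomal hyaluronidase gene Hyal1 fell by 0.38 (adjusted p = 0.0323). Without chow 3, 3 rose and 4 fell, with 9.17% of all genes called.

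Among 29 receptors and partners 4 fell and 1 rose (5 and 2 without chow 3), Cd44 being shared with the core proteins. At an unadjusted p under 0.05, 7 were lower and 1 higher, with no share of all genes given for that looser threshold. The share of all genes called was 4.04%, or 9.17% without chow 3. Sdcbp2, a relative of the syndecan-binding adaptor syntenin, read 9.73, 9.60, 9.72 and 10.03 on chow 1, 2, 3 and 5, and 8.59, 8.40, 8.36 and 8.41 on HFD 8, 10, 11 and 12. With no overlap between the diets, it fell by 1.33 (SE 0.093, 2.52-fold, adjusted p = 0.000319; -1.33 to -0.26 over its 3 probes). Itga5, a fibronectin receptor subunit, fell by 0.62 (adjusted p = 0.0367). Named after their values were seen, Sdcbp, the syntenin gene itself, fell by 0.31 (adjusted p = 0.0211) on its brightest probe while its 5 probes ranged from -0.31 to 0.47, and Dag1, the agrin-binding dystroglycan gene, rose by 0.26 (adjusted p = 0.0224). In the same arrays the macrophage list had a median of -0.56 and the endothelial list one of -0.29, and their part in these differences was not tested.

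**Figure D5:**
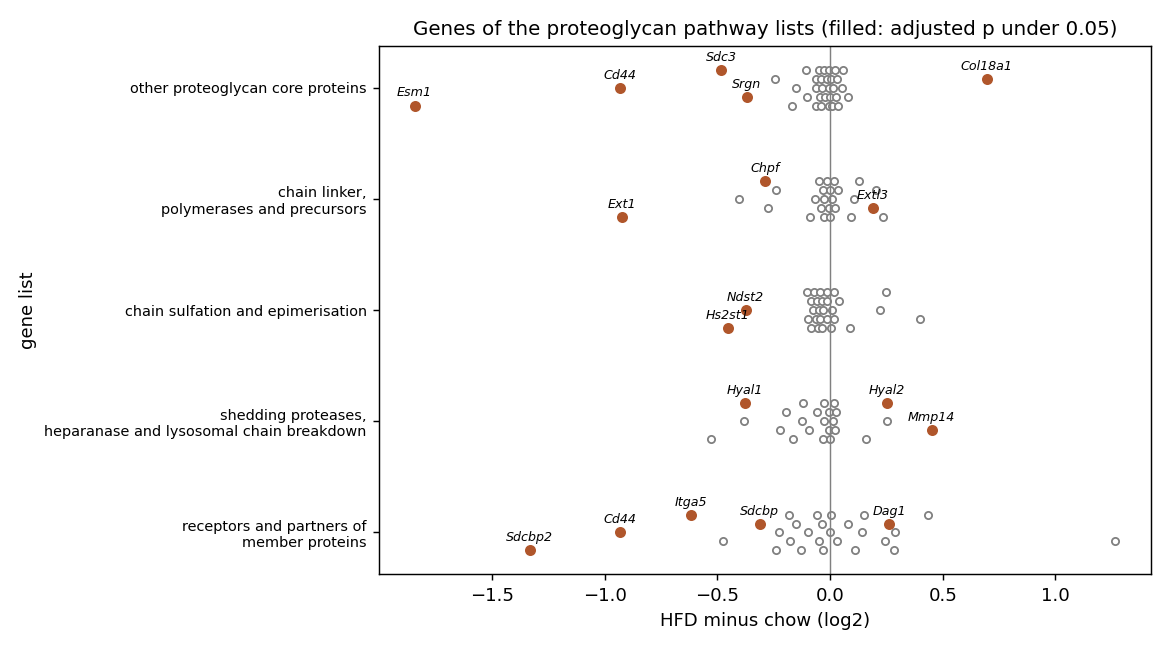
Difference between HFD and chow (log2) of each measured gene in the 5 lists; filled and named points have an adjusted p under 0.05. Most genes lie close to 0, Esm1, Sdcbp2, Cd44 and Ext1 lie farthest to the left, and the unfilled point at 1.27 is Fn1, whose probe dropped to 7.58 on chow 3.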

How the data were processed

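The table analysed held the authors' deposited log2 values of 45281 probes on 8 single-channel bead arrays, 1 column per sample, with 0 columns unused. The tool named in the submitters' processing notes is lumi, with version and steps unknown here. All columns share 1 distribution, and the unit was taken from its range; whether the scale is plain log2 or variance-stabilised is unknown. Precision is limited by the number of arrays. Probe names came from the array platform's annotation (35784 with 1 symbol, 0 with several, 9497 with none) and were updated through RefSeq's GRCm38.p6 table: 28620 by gene number, 2637 by accession, 2128 by current and 2343 by older symbol, 56 kept. A gene was its probe with the highest mean. HFD and chow were compared in limma 3.58.1 (R 4.3.3; lmFit, eBayes, 2-sided) with Benjamini-Hochberg adjustment over all 20289 genes, or all probes where said, after a test on simulated data. Folds are log2 differences turned back to the linear scale. Figures used matplotlib 3.10.9.

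The members and the 5 pathway and 6 marker lists were chosen with earlier results of these data known. Named genes are the members; up to 3 genes per list with the largest absolute difference among those called, or the 1 with the smallest p; and the 5 profiles nearest to Prg4, placeholder symbols passed over. Alternatives were quantile normalization, trend and robust eBayes, array weights, the mean of a gene's probes, probes above the median or upper quartile (7.50 and 7.99), and leaving out each array. The labels speak of biological replicates without tying an array to a mouse, so p-values measure the spread between arrays.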

Additional observations from a re-analysis of the deposited data

Results flagged for a closer look

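In 14 of 106 groups of 4 arrays examined, 1 array lay apart from the other 3 by Dixon's ratio; chance flags about 1 in 20 groups. Of the 36 groups of member probes 5 were such, all on chow 3. The brighter Prg4 probe read 13.89 there, against 13.33 to 13.37 on the other chow arrays, and the brightest Sdc1 probe 7.56 against 9.26 to 9.41. Sdc2 read 10.28 against 9.69 to 9.76, Sdc4 10.39 against 11.17 to 11.30, and Agrn 12.38 against 12.19 to 12.22. Chow 3 also held Ext1 at 12.46 (others 12.14 to 12.20) and Robo4 at 9.34 (8.88 to 8.95).

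The remaining values lay on other arrays. Esm1 read 8.84 on HFD 12 (8.75 to 8.77 on the others), Col18a1 10.12 on HFD 8 (10.39 to 10.44), Cps1, a urea cycle gene, 8.18 on chow 1 (8.44 to 8.495) and Dag1 9.79 on chow 2 (9.90 to 9.91). Lyve1 read 8.21 on chow 5 (8.65 to 8.73). Ms4a6d was low on chow 5, at 9.63 (10.44 to 10.52), and on HFD 8, at 7.67 (7.83 on each of the others).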

How the results depend on the processing

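No paired analysis was possible because the label numbers of the 2 diets do not overlap. The Prg4 difference stayed between -3.53 and -3.27 when 1 array was left out and moved to -2.51 with the mean of its probes. The 820 called genes became 1603 with array weights and 447 to 1861 without 1 array. Of the 9 tested genes 1 was called with trend and robust settings and 1 of the 6 left above the upper quartile, and 0 to 2 without 1 array. Of their 16 probes 1 was called in the fit reported; 2 were with array weights and with probes above the median (9 tested), 0 above the upper quartile (7 tested), and 0 to 3 without 1 array. The 17 pathway genes became 6 to 26 without 1 array; the 18 called marker genes became 33 with array weights and 14 to 31 without 1 array. Signs turned for Sdc1 (-0.13 with array weights; -0.22 to 0.40 without 1 array), Sdc2 (0.075 with array weights; -0.089 to 0.11) and Sdc4 (-0.22 to 0.085), none of them called. Of the differences of the other named genes under the alternatives, 413 kept direction and side of the threshold, 69 lost the call, 5 gained it and 0 reversed. Of the counts per list and direction 228 stayed within 1.5 times and 80 moved. The cause of these shifts was not tested. With array weights, chow 3 had a weight of 0.19 and the other arrays had 0.82 to 1.62. Signals near background limit what can be seen of Dcn, Lum and 49 pathway genes.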

Other observations

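How the probes of a gene deviated on each array was compared after the Prg4 probes were seen. Among 2245 genes with at least 2 probes above the upper quartile, both of the brightest probes deviated by over 0.5 from the other arrays of their diet (chow 3 left out of the reference) for 239 genes on chow 3, in opposite directions for 50 (2.23% of the genes). On the other arrays 0 to 17 genes deviated on both probes, in opposite directions for 0.

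Fn1, the fibronectin gene, whose product binds syndecans, was named after its values were seen. Its brightest probe read 12.86, 13.08 and 13.23 on chow 1, 2 and 5 and 12.79 to 13.21 in HFD, but 7.58, near background, on chow 3. A dimmer Fn1 probe moved the same way and read 7.78 on chow 3 against 9.60 to 9.90 on the other chow arrays. The Fn1 difference was 1.27 with all arrays (adjusted p = 0.760) and -0.10 without chow 3 (adjusted p = 0.768). Among bright probes (mean above 10 on the reference arrays) 251 read more than 2 lower on chow 3 and 1 more than 2 higher.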
